A study of Caenorhabditis elegans with 2 samples.

Results

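The gene grh-1 encodes GRH-1, the Grainyhead transcription factor of the nematode Caenorhabditis elegans, and its locus was examined together with the neighbouring gene Y48G8AR.8 for GRH-1 binding at and around the gene that makes the protein. The locus was chosen by its measured values, since the strongest GRH-1 peak of the genome lay there. All peak summits from 10 kb downstream to 10 kb upstream of grh-1 were taken, a window of 29955 bp on chromosome I (build ce11, bases 1248201 to 1278155). This gave 5 of the 2470 peaks of the pooled list, and 2 of 19973 protein-coding genes were the subject. Because these values chose the locus, they are given as a description and no test was made on them.

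Chromatin immunoprecipitation followed by sequencing was performed on whole L1 larvae of strain RW12208, in which grh-1 carries the CRISPR insertion st12208[grh-1::TY1::EGFP::3xFLAG]. The larvae were hatched after bleaching, held without food and collected at an age of 6 h. There was 1 group with 2 biological replicates, the description names an antibody against GFP while the antibody field gives grh-1, and no untagged or input library was analysed here. The lists past the authors' reproducibility threshold held 1787 peaks for replicate 1 and 1487 for replicate 2, and the read depth behind them is unknown. In whole larvae, strong binding in few cells and weaker binding in many cannot be told apart.

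Grainyhead proteins are transcription factors of the epidermis and other epithelia, and they bind the palindrome AACCGGTT and its close relatives as dimers. In C. elegans, GRH-1 is known from the epidermis, which makes a new cuticle at each molt, and its level rises and falls with the molting cycle. A transcription factor bound near its own gene is the usual starting point for asking about autoregulation, a question that binding data alone do not answer.

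The gene grh-1 (WBGene00001707) runs from base 1268155 down to base 1258201 on the reverse strand and has 3 annotated transcripts. Isoforms a and b start at its outer end, and the short isoform c starts 4150 bp inside the gene. The annotated 5′ UTR of the gene is 1 bp long, and RefSeq marks the gene as partial, so that distances given here from its 5′ end are in effect distances from the start codon. Y48G8AR.8 (WBGene00271777) runs from base 1271516 to base 1273033 on the forward strand, 3360 bp from the 5′ end of grh-1, so that both genes are transcribed away from the sequence between them. Its 2 exons hold a coding sequence of 135 bases, enough for 45 amino acids, and RefSeq names the product an uncharacterized protein. The intron of Y48G8AR.8 takes up 1368 of its 1518 bp. Downstream of grh-1 the window holds the gene Y48G8AL.15, the end of herc-1, a gene named for the HERC family of ubiquitin ligases, and the short non-coding RNA gene Y48G8AL.19.

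Of the 5 pooled summits, 4 lay upstream of grh-1 within a stretch of 4618 bp, from 1182 to 5800 bp before its 5′ end, and the other lay beyond its 3′ end in herc-1. The body of grh-1 held none. The signal value is the authors' score of a peak's strength, on a scale not given in the sources used here, so levels are compared within a list, and replicates only through how the ratio of their values varies between summits. The threshold is a limit on the irreproducible discovery rate (IDR), which estimates how likely a peak is to fail to recur between rankings. Every peak past it had a −log10 IDR of at least 2.

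**Figure D1:**
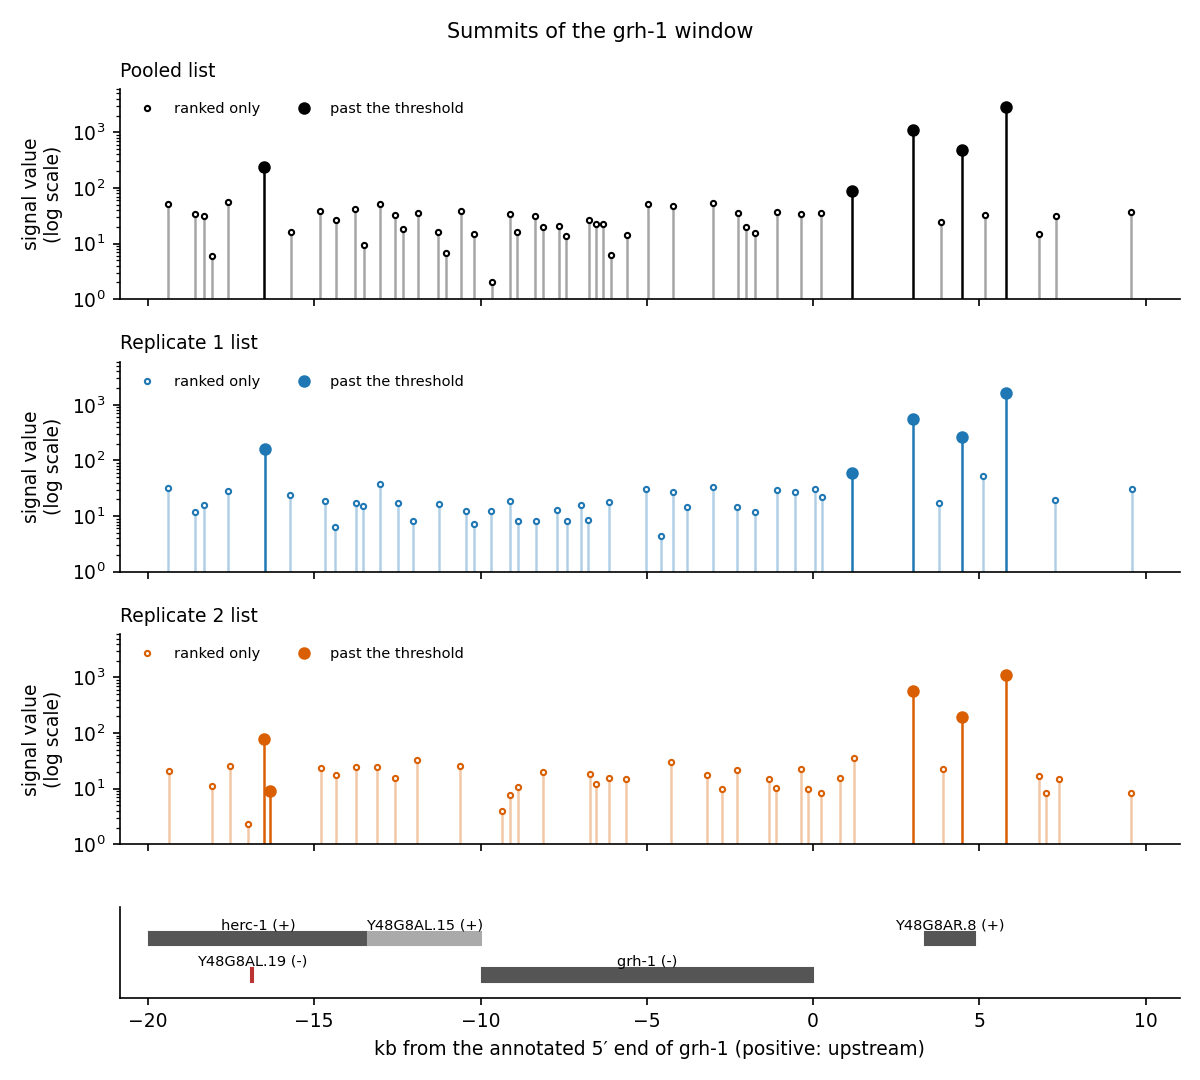
Signal value (log axis) of each ranked summit of the window in the pooled list and the lists of replicates 1 and 2, by distance in kb from the annotated 5′ end of grh-1, with the genes and their strands below. Filled points are past the threshold; in the pooled list they stand 1182, 3007, 4469 and 5800 bp upstream and at −16509 bp, negative distances running through the gene and past its 3′ end.

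The highest summit lay 5800 bp upstream of grh-1. Its signal value was 2830.4 in the pooled list, 1667 in replicate 1 and 1119 in replicate 2, and the 3 summits lay within 5 bp of each other. Its peak, bases 1273761 to 1274334, was in intergenic sequence, 922 bp past the 3′ end of Y48G8AR.8. On its other side, the nearest annotated gene was the non-coding RNA gene Y48G8AR.7 at 4853 bp, and the nearest protein-coding gene was Y48G8AR.2, for a FYVE-type domain protein, at 8146 bp. It therefore lay outside every promoter window, which reached from 1000 bp before to 200 bp past where a protein-coding transcript starts. Of the 100 highest summits of the pooled list, 18 lay farther from a 5′ end of a protein-coding transcript than its 2439 bp, and the median distance was 408 bp.

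The rank of this summit rested on a narrow margin. In the pooled list the next summit, at ifbp-1, had a value of 2739, so the summit upstream of grh-1 was 1.03-fold higher. In replicate 1 the values were 1667 and 1526, and in replicate 2 they were 1119 and 1190. The order of this pair of summits thus differed between the replicates, and no test of it was made.

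The next summit, 3007 bp upstream of grh-1, was the 26th of the pooled list. Its signal value was 1122 in the pooled list, 558 in replicate 1 and 563 in replicate 2. The peak, bases 1270958 to 1271356, lay between the 2 genes and 354 bp upstream of Y48G8AR.8, and it was the only one of the 5 in the promoter window of a protein-coding gene. It ranked 41 in replicate 1 and 14 in replicate 2.

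A further summit lay 4469 bp upstream of grh-1, within the intron of Y48G8AR.8. Its signal value was 476 in the pooled list, 267 in replicate 1 and 194 in replicate 2. The peak spanned bases 1272502 to 1272751, 250 bp in all, the narrowest of the 5. It ranked 214 in the pooled list, 206 in replicate 1 and 234 in replicate 2.

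The summit nearest to grh-1 was the weakest. It lay 1182 bp upstream, in intergenic sequence (bases 1269165 to 1269508), and its pooled signal value was 88.0. In replicate 1 its value was 59.5 and it passed the threshold with a −log10 IDR of 2.27. In replicate 2 the nearest ranked summit was 62 bp away, with a value of 35.6 and a −log10 IDR of 0.0773, and did not pass. In the pooled list it stood at rank 1903 of 2470, 32.2-fold below the highest summit.

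The summit beyond the 3′ end of grh-1 lay in an intron of herc-1 (bases 1251474 to 1251817). Its signal value was 241 in the pooled list, 161 in replicate 1 and 79.1 in replicate 2. The nearest 5′ end of any kind was that of Y48G8AL.19, 324 bp away, while the nearest protein-coding one, that of Y48G8AL.15, was 3124 bp away. The list of replicate 2 held another summit there, at −16319 bp from the 5′ end of grh-1 as against −16525 bp, with a value of 9.10. Replicate 2 thus also had 5 entries in the window, of which 4 were separate positions.

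Below the threshold, the pooled ranked list held 44 further summits in the window, with signal values of 2.00 to 56.3 and a median of 28.9. Replicate 1 had 39, with values up to 52.9, and replicate 2 had 35, with values up to 35.6. In all, 5 of 49 ranked summits of the window (10.2%) passed in the pooled list, 5 of 44 (11.4%) in replicate 1 and 5 of 40 (12.5%) in replicate 2. Over the genome 2.10% of the pooled ranked peaks passed, 1.80% of those of replicate 1 and 1.75% of those of replicate 2. The window was chosen by these lists, so the difference from the genome is no result. Ranked summits stood at 1.64 per kb in the window and 1.17 per kb in the genome.

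The ranked summits inside grh-1 were all below the threshold. The pooled list held 20 of them, with values of 2.00 to 53.3 and a median of 22.5, close to the median of 23.5 of all pooled ranked peaks below the limit. The highest of them ranked 8128 of the 117774 pooled ranked peaks. The one with the lowest IDR had a value of 47.7 and lay 70 bp from the 5′ end of isoform c, which starts at base 1264005. Its −log10 IDR was 1.84, the closest to the limit among the pooled summits of the window that failed it, while the lowest in the window to pass had 2.33. In the authors' conservative ranked list of the pooled replicates, the highest −log10 IDR inside grh-1 was 0.926. Replicate 1 had a summit 71 bp from that 5′ end (26.7, −log10 IDR 0.0551) and replicate 2 one at 118 bp (30.5, 0.0253).

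Around the main 5′ end of grh-1, replicate 1 had ranked summits 64 and 264 bp upstream, with values of 30.2 and 21.7. Their peaks overlap, so they need not be separate positions, and their −log10 IDR was 1.90 for both, just under the limit. In replicate 2 the nearest upstream one, at 250 bp, had a value of 8.43 and a −log10 IDR of 0.0253. The pooled list had one at 234 bp, with a value of 34.8 and a −log10 IDR of 0.732. Replicate 1 also had a summit 5123 bp upstream, 245 bp past the 3′ end of Y48G8AR.8, with a value of 52.9 and a −log10 IDR of 1.97. The pooled summit there, at 5156 bp, had a value of 32.8 and a −log10 IDR of 0.107. Replicate 2 had no ranked summit within 100 bp of it. The thresholded lists of neither replicate held a summit in the promoter window of grh-1.

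The allele's name places the tag after the coding sequence of grh-1. Within 250 bp of the annotated stop codon the pooled list held a ranked summit at 247 bp, with a value of 16.0. The values there were 8.33 in replicate 1 and 10.7 in replicate 2, each with the lowest −log10 IDR of its list. Farther out, the pooled list had values of 31.8 at 318 bp and 34.6 at 456 bp, both below the limit. Replicate 1 had 8.11 at 339 bp and 19.0 at 442 bp, and replicate 2 had 7.77 at 459 bp. Reads from the inserted tag itself have no place on the reference genome.

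**Figure D2:**
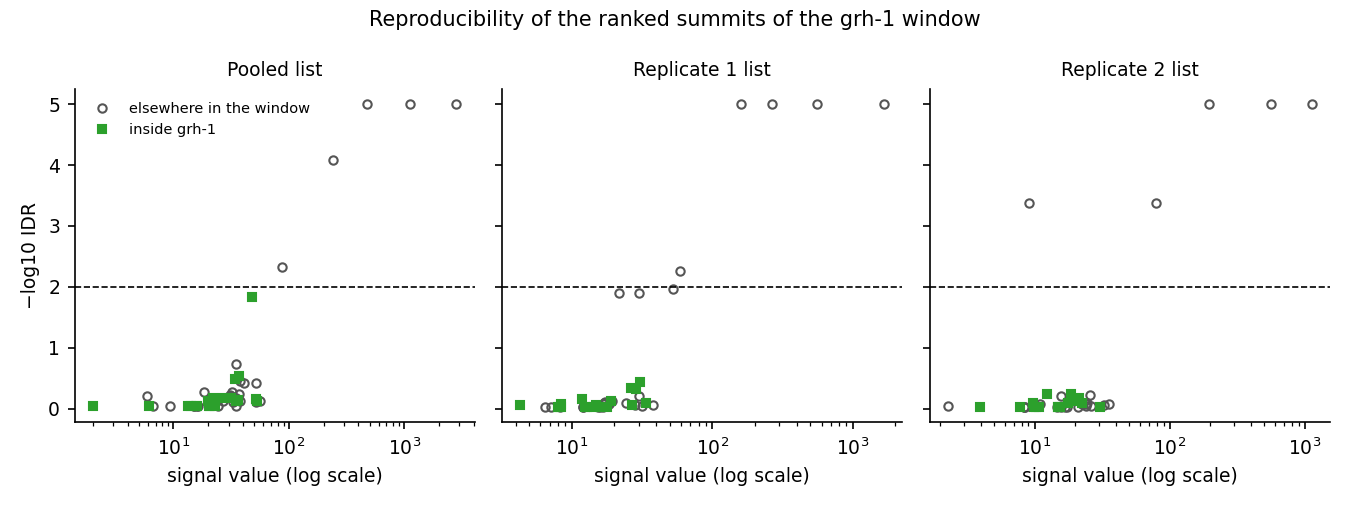
The −log10 IDR of each ranked summit of the window against its signal value (log axis) in the pooled list and in each replicate, with the summits inside grh-1 as filled squares and the limit of 2 as a dashed line. No summit inside grh-1 reaches the limit; the closest has 1.84 in the pooled list.

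The replicates were then compared at the 5 summits. Of these, 4 had a summit past the threshold within 100 bp in both replicates, while over the whole pooled list 48.2% did. All of the 100 highest pooled summits did. The locus was chosen by its values, so the difference from 48.2% is no result. At the 4 matched summits, those of replicate 1 lay 3 to 18 bp from the pooled summit. Those of replicate 2 lay 0 to 16 bp from it, beside medians of 8 and 9 bp over all 1191 matched peaks. The value in replicate 2 divided by that in replicate 1 was 0.671 at the highest summit, 1.01 at 3007 bp, 0.729 at 4469 bp and 0.490 in herc-1. The median of this ratio over the 1191 peaks was 0.797, and from the 10th to the 90th percentile it ran from 0.612 to 1.05. The values of the replicates belong to separate lists of unknown depth, so only the differences between summits can be read from the ratios.

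The ratios at the locus were spread widely. The summit 3007 bp upstream was 1 of 181 (15.2%) with a ratio above 1, and 1 of 4 among the 100 highest of the pooled list. The summit in herc-1 stood at the other end, since 1.76% of the 1191 peaks had a ratio as low or lower. Replicate 2 had another, overlapping entry there, with a value of 9.10, which this ratio left out. The ratio of 0.671 at the highest summit was below those of the other 5 of the 6 highest of the pooled list, which were 0.767 to 0.843.

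**Figure D3:**
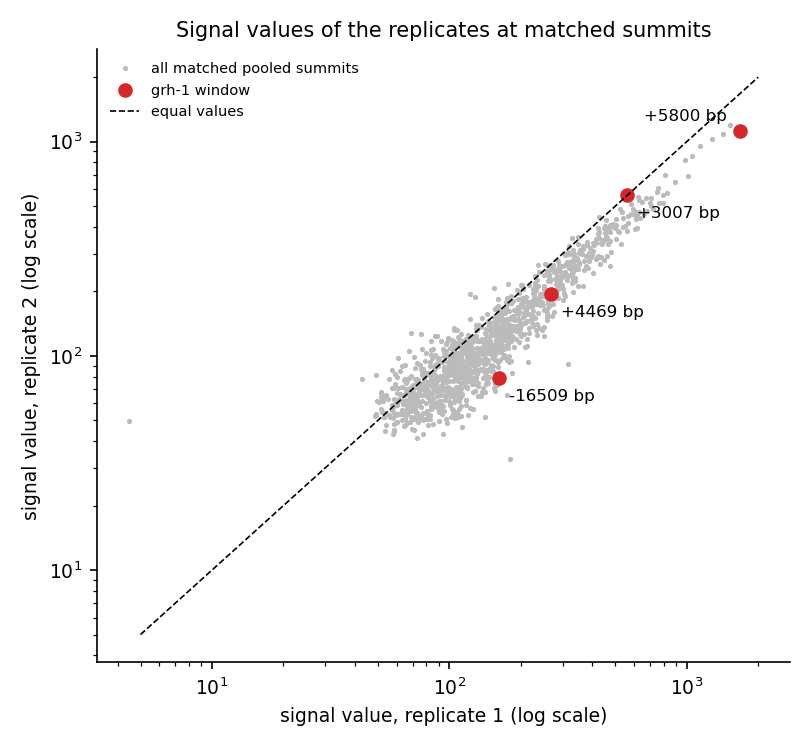
Signal value in replicate 2 against that in replicate 1 (log axes) at the 1191 pooled summits matched in both thresholded lists, with the 4 matched summits of the window in red and equal values as a dashed line. The summit at 3007 bp lies on the line of equal values and the other 3 lie below it, that in herc-1 farthest.

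The spacing of the upstream summits was described at several gaps, on which the counts depended. The gaps between the 4 upstream summits were 1825, 1462 and 1331 bp. Joining summits of the pooled list that were at most 2000 bp apart gave 2011 runs, of which 25 held 4 summits or more. With gaps of at most 5000 bp, 65 of 1763 runs held 4 or more. With 1000 bp the highest summit stood alone. Among the 214 summits with a value of at least 476, that of the third of the locus, 205 stood alone at 2000 bp. There, 3 runs held 2 summits and 1 run held 3. That run was the one from 3007 to 5800 bp upstream of grh-1. The cut was set by the locus itself. With the 250 highest summits, there were 2 such runs of 3 in the pooled list and in each replicate, and the locus was 1 of them in all 3 lists. With the 100 highest there was none. At gaps of at most 5000 bp, the 250 highest gave 4 runs of 3 or more in each list, the longest of 4 summits against 3 at the locus. At that gap the 100 highest gave 1 run of 3 in the pooled list and 1 in replicate 1, neither at the locus. Replicate 2 had none.

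Counted by gene, 37.4% of the 19973 protein-coding genes had a pooled summit from 10 kb before to 10 kb after the gene. No gene had a higher one than grh-1, Y48G8AR.8 and Y48G8AR.2, whose windows share the same summit. By number, 52 genes had more than the 5 summits of grh-1 and 121 (0.606%) had 5 or more, with a maximum of 12. Longer genes have longer windows here, so the number is not a density.

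**Figure D4:**
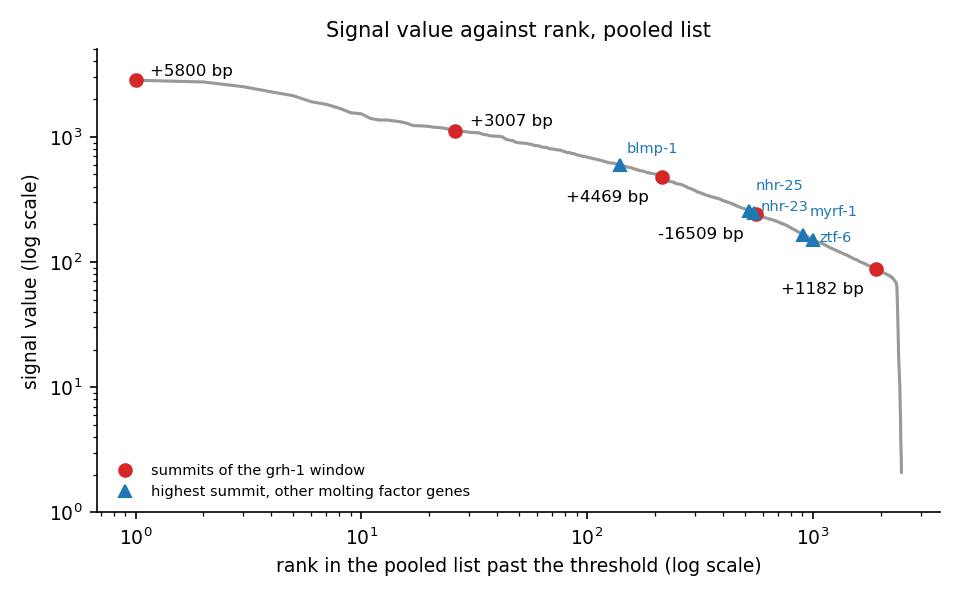
Signal value against rank in the pooled list (log axes, grey line), with the 5 summits of the grh-1 window in red and the highest summit near each of 5 other molting factor genes as blue triangles. The window's summits run from rank 1 to rank 1903; the next molting factor gene, blmp-1, is at rank 140.

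Other transcription factor genes linked to molting and its oscillating gene expression were set beside grh-1. Of the 6 others on the list, 5 had a pooled summit within 10 kb, where 37.4% of all protein-coding genes did. In each replicate 5 of the 6 also had one, beside 30.6% of all genes in replicate 1 and 26.8% in replicate 2. The median of the highest pooled values of these 5 was 245, while over all protein-coding genes with a summit it was 165. The gene blmp-1, for a zinc-finger homologue of BLIMP1, came next to grh-1 with 590, 1687 bp upstream of its 5′ end and 4.80-fold below grh-1. In the replicates the summit near blmp-1 had values of 309 and 269.

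The nuclear receptor genes followed. The gene nhr-25, for the homologue of Ftz-F1, had 6 pooled summits and a highest value of 256, with 3 summits in replicate 1 and 5 in replicate 2, where the highest values were 147 and 108. The gene nhr-23, for the homologue of the ROR receptors, had 3 pooled summits and a highest value of 245 at its 5′ end, with 138 in replicate 1 and 108 in replicate 2. The gene myrf-1, for a membrane-bound regulator of molting, had 1 pooled summit with a value of 165, 306 bp upstream, with highest values of 81.6 and 74.5 in the replicates. The gene ztf-6 had 1 pooled summit with a value of 151, but 2 in replicate 1 with a highest value of 110 and 3 in replicate 2 with a highest value of 25.7. The gene bed-3, for a BED zinc-finger protein, had none in any of the 3 lists. Summits in the promoter window were present at myrf-1, nhr-23 and nhr-25. The highest summit was among them at myrf-1 and nhr-23. At nhr-25 the highest in that window had a value of 186, and the highest of all lay 628 bp downstream of the 5′ end. The highest ones at grh-1, blmp-1 and ztf-6 lay 5800, 1687 and 4413 bp from the 5′ end.

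**Figure D5:**
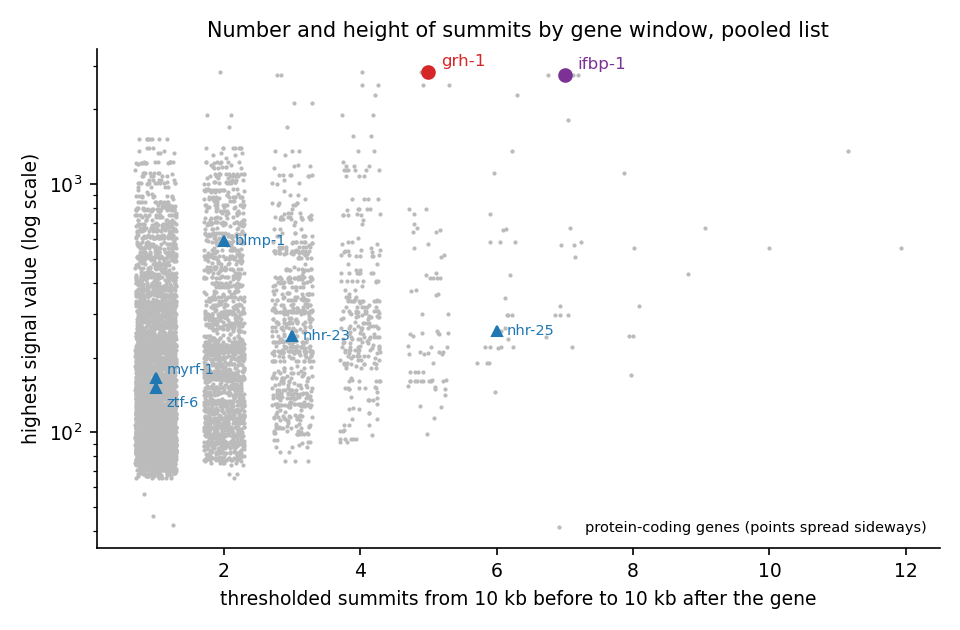
Highest signal value (log axis) against the number of pooled summits from 10 kb before to 10 kb after each protein-coding gene with at least 1 summit, points spread sideways around whole numbers. The gene grh-1 stands at 5 summits and 2830.4, ifbp-1 at 7 summits, and the other molting factor genes lie lower, up to 590 at blmp-1.

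Sequence was examined within 100 bp of each summit, on both strands. The palindrome AACCGGTT was at none of the 5 summits and nowhere in the window of 29955 bp, while 3.81% of all pooled summits held it. Among the 100 highest pooled summits the share was 9%. The variant AACTGGTT occurred at 2 places of the window. The first was 29.5 bp from the weakest summit, that at 1182 bp upstream, and the other was 627.5 bp from the nearest ranked summit of the pooled list. It was found at 4.74% of all summits and at 4% of the 100 highest. The core ACCGGT, which every AACCGGTT also holds, occurred at 4 places of the window. The nearest was 6.5 bp from the summit in the intron of Y48G8AR.8, and 7.09% of all summits had one within 100 bp. Of the 100 highest, 13% had one.

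With all 3 site types counted, 2 of the 5 summits had a site within 100 bp, as did 11.7% of all summits and 16% of the 100 highest. Another ACCGGT lay 123.5 bp from the summit at 3007 bp. The highest summit had none within 200 bp, its nearest being an ACCGGT at 905.5 bp. Its closest resemblance to AACCGGTT within 100 bp had 2 mismatches, which is also the case at 37.0% of all summits, while the summits at 1182, 3007 and 4469 bp had 1 mismatch at best (12.6% of all summits). The looser half-site CNGGTT was at 4 of 5 summits, the highest being the exception. It was at 30.8% of all summits and 27% of the 100 highest.

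The windows of the highest summits differed in base composition. The highest summit lay in a stretch rich in alternating G and A. It had GAGAGA at 17 overlapping positions on either strand, and the longest uninterrupted alternation ran for 37 bp. An alternation at least that long was at 13 of the 2470 summits (0.526%). GAGAGA occurred once each at the summits in herc-1 and at 3007 bp upstream. It was at 35.2% of all summits and 45% of the 100 highest. The summit at 3007 bp upstream had a GC content of 66.7%, which 4 of 2470 windows reached, itself included, where the median was 42.8%. The summit at 1182 bp upstream was AT-rich, with 32.3% GC, and 132 of the 2470 windows, itself included, had as low a GC content or lower.

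Other words were sparse. The E-box CACGTG was at the summit 1182 bp upstream only (11.1% of all summits), and the word AGACGCAG was at the herc-1 summit only (12.1%). Of 864 different words of 8 bases in the 5 windows, with both strands counted as 1, none was in 3 windows and 22 were in 2. Simple repeats and duplicated sequence, as lower-case letters of the reference mark them, took up 29.9% of the window of the highest summit, 9.45% at 3007 bp, 1.99% at 4469 bp, 43.8% at 1182 bp and 42.3% in herc-1. Over all summits the median was 19.9%. Mappability was not available here, and its part in these values was not tested.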

How the data were processed

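The authors deposited peak lists on build ce11, per the labels. The sources used here name neither an aligner nor a peak caller. Per the deposited file descriptions, the pooled list came from the alignments of both replicates and thus shares its reads with each replicate's own list. The deposited signal value is a score of each peak. The deposited ranked lists give a −log10 IDR capped at 5, and 49 pooled peaks past its limit of 2 are outside the thresholded list, none of them in the window. A further 16 columns of the pooled ranked lists were not used.

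Genes came from Ensembl release 115 and sequence from RefSeq (WBcel235). Its chromosome V, of 20924180 bp, ends where the last peak does. Python 3.11.15, numpy 2.4.6 and pandas 2.3.3 were used. Replicate summits were matched within 100 bp, and sites were searched in 201 bp. Matching, overlap and site searches were tested on simulated data. No statistical test was made. Members, gene list and sites were chosen with earlier results of these data known. Named genes were the 2 members, those holding or nearest to a summit of the window, the molting list, and those next to grh-1 by highest summit; Y48G8AR.7 was added as the nearest annotated gene past the highest summit. Alternatives are in the closing section. No sequence of the locus is printed.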

Additional observations from a re-analysis of the deposited data

How the results depend on the processing

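The number of summits in the window was 5 in the conservative list, in each replicate's list, with 1 summit per 500 bp and with 20 kb to either side of grh-1, and 4 at a −log10 IDR of at least 3. With 5 kb to either side it was 3, since the highest summit and that in herc-1 then lie outside. Replicate 2 had 4 separate positions, an alternative added after the data were seen. The highest summit ranked 1 in replicate 1, the conservative list and the pooled ranked list, and 2 in replicate 2. By −log10 IDR it shared ranks 1 to 283, because the value is capped. By number of summits grh-1 ranked 53 among protein-coding genes, also in the conservative list. It ranked 26 in replicate 1 and 11 in replicate 2, where its 5 entries counted both overlapping ones in herc-1. With 5 kb to either side of each gene it ranked 137, and with 20 kb it ranked 270. Matching in both replicates gave 4 of 5 summits under every rule tried, and Grainyhead-type sites were at 2 with 50 bp and 3 with 200 bp to either side. No paired analysis was possible because there is 1 group. Depth is unknown and no control library was analysed here, so errors on signal values could not be given.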

Other observations

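The 13 pooled summits with an alternation of G and A of at least 37 bp within 100 bp had signal values from 92.2 to 2830.4, with a median of 243, while the median of all pooled summits was 127. The highest of them was the summit 5800 bp upstream of grh-1 and the next, with 2512, was the third of the pooled list, near the 5′ end of Y24D9A.6. These values were looked up after the repeat at the grh-1 locus had been seen, and the cut of 37 bp is its length. The summit there is itself 1 of the 13, so their highest value was set by this choice.

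With strong summits taken as the 500 highest of a list and joined at gaps of at most 2000 bp, the pooled list and each replicate had 3 runs of 3 summits, and the locus was 1 of them. With the 1000 highest there were 11 in the pooled list, 8 in replicate 1 and 12 in replicate 2, and the longest held 8, 5 and 5 summits. At gaps of at most 5000 bp, the 500 highest gave 6 runs of 3 or more in each list, the longest of 4 summits.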
